A study of Mus musculus with 4 samples.

Results

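The autophagy machinery was examined as 33 genes taken by symbol from the core of the pathway, out of 19938 genes with a probe set of their own on the arrays. All 33 were measured, by the brightest of a gene's probe sets (by its mean on the 4 arrays), and 32 entered the test. Spleen and lymph nodes of wild-type C57BL/6 mice were the source of the CD8+ T cells, which were enriched by magnetic removal of other cells and kept in culture for 2 days. Cultures of cytotoxic T lymphocytes (CTL) contained IL-2 and anti-IFN-γ, and Tc17 (IL-17-producing CD8+ T cell) cultures contained these and also IL-6 and TGF-β, so that IL-2 and the block of IFN-γ were common to both groups. Each group had 2 biological replicates with 1 array each. The mice were adult per the study's methods, which describe anti-CD3 and anti-CD28 antibodies as the stimulus of Tc17 cultures. Separate animals per replicate are not stated, and the p-values therefore reflect only how far these samples spread, which may be technical. That spread is taken over all genes as well as within the gene tested. The study used the arrays to tell the transcripts of Tc17 cells from those of CTLs, and the comparison here asks which autophagy genes differed between them.

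Autophagy encloses cytoplasm in a double membrane, the autophagosome, and delivers it to the lysosome for breakdown. The ULK1 kinase complex starts the process, and the Beclin 1-VPS34 lipid kinase complex then marks the growing membrane. ATG9 and the ATG2 and WIPI proteins supply it with lipid, and enzymes related to those of ubiquitin transfer attach the small ATG8 proteins (LC3 and GABARAP) to it, to which cargo receptors bind. In T cells the pathway is known for its part in survival and in the formation of memory cells after activation. Transcript levels do not measure autophagic flux, since much of the pathway is controlled at the level of proteins.

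The deposited values were RMA intensities on a log2 scale, with array medians from 3.18 to 3.20. Markers of T cells were bright on all arrays, with *Cd8a*, *Cd8b1*, *Cd3d*, *Cd3e*, *Cd3g* and *Thy1* between 7.93 and 10.66, and 4 of these 6 rose in Tc17 cells (limma adjusted p under 0.05), their summed linear intensity being 3083 and 3132 in CTLs against 4596 and 4773 in Tc17 cells. *Cd4* lay between 2.83 and 3.28. Of 18 measured markers of B cells, myeloid cells, dendritic cells and NK cells, 8 were bright enough to be tested and none was called by limma, while 1 (*Cd79b*) had an unadjusted p under 0.05, and all but *Cd79b* (4.53 to 5.14) lay at or below 3.25. Their summed intensities ran from 42.0 to 56.1 for B cells, from 35.7 to 38.9 for myeloid cells, from 24.2 to 27.9 for dendritic cells and from 17.3 to 20 for NK cells. The part of the T cell markers in the results below was not tested. In whole cultures a smaller share of cells with a transcript and less of it per cell cannot be told apart.

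Autophagy genes that differed were higher in Tc17 cells. Of the 32 tested members, 5 rose and none fell at a limma adjusted p under 0.05, and these were *Map1lc3b* (2.23-fold), *Rb1cc1* (1.70-fold), *Gabarap* (1.59-fold), *Pik3c3* (1.42-fold) and *Atg4a* (1.36-fold). The other 27 did not pass, with differences from -0.28 to 0.45 on the log2 scale. At an unadjusted limma p under 0.05, 11 of the 32 members were higher and none was lower. Of all 14953 genes tested, 4049 had such a p, 2130 of them higher. Among all 14953 genes tested 15.7% were called in either direction, 8.22% higher and 7.44% lower, so the share of members called (15.6%) was near that of all genes in both directions together, and it lay in the higher direction for each of the 5. With the filter at the median, which leaves the brighter genes, 24.8% of 9969 genes were called in either direction, and 5 of 29 members. The shares over all genes tested given below include dimmer genes. The median difference over the members was 0.22, against 0.02 over all genes tested. The members were chosen with earlier results of these data known, so these shares are not a test.

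The members differed little but mostly one way. In 18 of 32 members (56.2%) both Tc17 arrays lay above both CTL arrays, against 29.6% of all genes tested, and in 1 member, *Ambra1*, both lay below, against 24.8% of all genes. The groups overlapped in the other 13. Some groups were barely apart. The lowest difference between single arrays ran from 0.01 (*Atg4d*) to 1.00 (*Map1lc3b*) in the 18, and the nearest arrays of *Ambra1* differed by -0.01. The fitted difference was above 0 for 25 members and below 0 for 7, against 8014 above and 6939 below of all 14953 genes tested. Set against the CTL mean, the members had a median of 0.27 on the first Tc17 array and of 0.16 on the second, while that over all genes tested was 0.02 and 0.01.

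**Figure D1:**
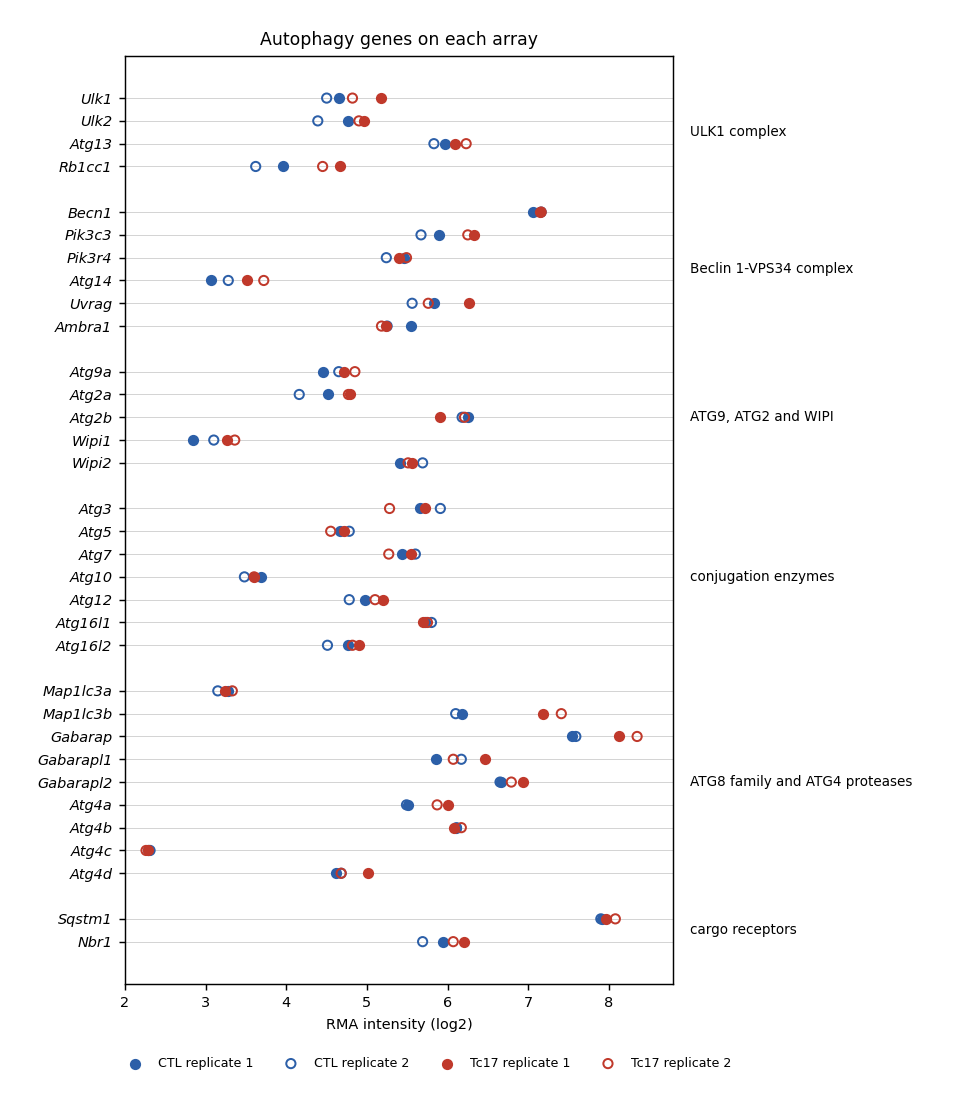
RMA intensity on the log2 scale (horizontal axis) of each of the 33 autophagy genes, in 6 functional groups. Each circle is 1 array, with CTL in blue, Tc17 in red, and replicates 1 and 2 filled and open. For *Map1lc3b* the Tc17 arrays lay at 7.18 and 7.41 and the CTL arrays at 6.18 and 6.10, while for *Atg4b* the 4 arrays lay between 6.08 and 6.17.

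In the ULK1 complex both Tc17 arrays lay above both CTL arrays for all 4 genes, against 29.6% of all genes tested. Of the 4, 1 rose (25%, against 8.22% of all genes tested), a share that rests on 1 gene. *Rb1cc1* encodes FIP200, the scaffold on which the complex is built. Its level was 3.96 and 3.62 in CTLs and 4.67 and 4.45 in Tc17 cells, with no overlap. The difference was 0.77 ± 0.15 (log2, ± SE, limma adjusted p = 0.00526), and leaving out the first or the second CTL array gave 0.94 or 0.60. *Ulk1*, the kinase of the complex, was at 4.65 and 4.50 in CTLs against 5.17 and 4.82 in Tc17 cells. The arrays of the groups did not overlap, yet the difference of 0.42 ± 0.15 did not pass (limma adjusted p = 0.0884). Without Tc17 replicate 2, the lower of the Tc17 arrays, it was 0.59 and passed. The related kinase gene *Ulk2* had a difference of 0.35 ± 0.15 (limma adjusted p = 0.152), and *Atg13*, which encodes the adaptor between kinase and scaffold, one of 0.26 ± 0.13 (limma adjusted p = 0.245). In both genes the Tc17 arrays lay above the CTL arrays.

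Of the 6 genes of the Beclin 1-VPS34 complex and its partners, 1 rose. The share of 16.7%, against 8.22% higher and 15.7% called in either direction over all genes tested, rests on this 1 gene. This was *Pik3c3*, which encodes the lipid kinase VPS34 itself. It was at 5.89 and 5.67 in CTLs and at 6.33 and 6.25 in Tc17 cells, without overlap, a difference of 0.51 ± 0.13 (limma adjusted p = 0.0249). The call was lost without CTL replicate 2 (0.40), Tc17 replicate 1 (0.47) or Tc17 replicate 2 (0.55). *Atg14*, the subunit that directs the kinase to autophagy, was close to the threshold at 0.45 ± 0.14 (limma adjusted p = 0.0525). It was dim, at 3.06 and 3.28 in CTLs and at 3.51 and 3.72 in Tc17 cells. The CTL values straddled the array medians, where background compresses differences. It passed with the mean of each gene's probe sets (adjusted p = 0.0498), although it has 1 probe set itself. The core subunits *Becn1* (0.04 ± 0.13) and *Pik3r4* (0.10 ± 0.13) had overlapping groups and did not pass. Neither did *Uvrag*, the subunit of the alternative complex that acts later at endosomes (0.31 ± 0.17), whose Tc17 arrays were unequal at 6.26 and 5.76. *Ambra1*, a regulator of Beclin 1, had the opposite sign at -0.19 ± 0.14 (limma adjusted p = 0.445).

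None of the 5 genes of the lipid supply step passed. The lipid transfer gene *Atg2a* came nearest, with CTL arrays at 4.52 and 4.16 and Tc17 arrays at 4.79 and 4.77. Its difference was 0.44 ± 0.15 (limma adjusted p = 0.0726), and it passed without CTL replicate 1 at 0.62. Its paralog *Atg2b* had a difference of -0.16 ± 0.14 by the brighter of its probe sets and 0.07 by the other, both with overlapping groups. *Atg9a*, the membrane protein of the vesicles that seed the autophagosome, had a difference of 0.22 ± 0.13. The lipid-binding *Wipi1* (0.34 ± 0.14) and *Wipi2* (-0.01 ± 0.14) did not pass either, with the 4 arrays of *Wipi1* between 2.84 and 3.36.

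The conjugation enzymes had the median closest to 0 among the 6 groups of members. None of 7 passed, their median was -0.04, and their differences ran from -0.28 to 0.27. The E2-like enzyme gene *Atg3* was at 5.66 and 5.91 in CTLs and at 5.72 and 5.28 in Tc17 cells (-0.28 ± 0.16, limma adjusted p = 0.320). The E1-like enzyme gene *Atg7* differed by -0.11 ± 0.14. For *Atg5* the difference was -0.09 ± 0.13, and for *Atg16l1* it was -0.04 ± 0.13. These encode parts of the ATG12-ATG5-ATG16L1 complex, which acts as the last ligase, and the groups overlapped in both. The difference of *Atg10*, the other E2-like enzyme gene, was 0.02 ± 0.13. The ubiquitin-like *Atg12* (0.27 ± 0.13, limma adjusted p = 0.221) and *Atg16l2*, a paralog of *Atg16l1* (0.22 ± 0.14, limma adjusted p = 0.363), had Tc17 arrays above both CTL arrays without passing. A p above the threshold does not show equal levels, and with the SE given here such differences were not detectable.

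The ATG8 family and the ATG4 proteases, which trim ATG8 proteins before conjugation and release them afterwards, held 3 of the 5 members that rose. These 3 were 37.5% of the 8 genes tested in this group, against 8.22% higher among all genes tested. *Map1lc3b* encodes LC3B, the ATG8 protein most used as a mark of autophagosomes. It was at 6.18 and 6.10 in CTLs and at 7.18 and 7.41 in Tc17 cells. The groups were far apart in relation to the spread within them, and the difference was 1.16 ± 0.13 (limma adjusted p = 1.96e-04). A further probe set annotated to the same gene gave 6.23 and 6.11 in CTLs against 7.19 and 7.25 in Tc17 cells. *Gabarap*, the founding member of the second ATG8 branch, was at 7.54 and 7.59 in CTLs and at 8.12 and 8.35 in Tc17 cells. Its difference was 0.67 ± 0.13 (limma adjusted p = 0.00584), and the call was lost without Tc17 replicate 2 (0.55).

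The remaining ATG8 genes did not pass. For *Map1lc3a*, a dim gene with all arrays between 3.15 and 3.33, the difference was 0.07 ± 0.13. *Gabarapl1* had overlapping arrays, at 5.85 and 6.17 in CTLs against 6.46 and 6.07 in Tc17 cells (0.26 ± 0.16). For *Gabarapl2* the arrays stood apart by little, at 6.66 and 6.65 against 6.93 and 6.79 (0.20 ± 0.13, limma adjusted p = 0.369). Its dimmer probe set gave 2.64 and 2.75 against 3.14 and 3.18, a difference of 0.47 that passed when the dimmest probe set of each gene was used. RefSeq lists 6 pseudogenes named after *Gabarapl2* and 1 after *Atg4a*, so signal from such copies cannot be told apart from that of the genes.

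Among the proteases, *Atg4a* was at 5.51 and 5.49 in CTLs and at 6.01 and 5.87 in Tc17 cells. The groups did not overlap, and the difference was 0.44 ± 0.13 (limma adjusted p = 0.0392). Its second probe set gave the same difference of 0.44, from 5.23 and 5.16 to 5.68 and 5.59. The call was lost when any 1 array was left out (0.45 and 0.43 without the first and the second CTL array, 0.37 and 0.51 without the first and the second Tc17 array). *Atg4b* (0.02 ± 0.13) and *Atg4d* (0.20 ± 0.14) did not pass. *Atg4c* was the member left out as dim, at 2.29 and 2.31 in CTLs and 2.28 and 2.26 in Tc17 cells, under the filter level of 2.59.

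Neither cargo receptor passed. *Sqstm1* encodes p62, which binds ubiquitin and LC3 and is itself degraded by autophagy. Its 4 arrays lay at 7.91 and 7.90 in CTLs and at 7.97 and 8.08 in Tc17 cells, a difference of 0.12 ± 0.13 (limma adjusted p = 0.637). For the related *Nbr1* it was 0.32 ± 0.14 (limma adjusted p = 0.160), with arrays at 5.94 and 5.69 against 6.20 and 6.07.

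**Figure D2:**
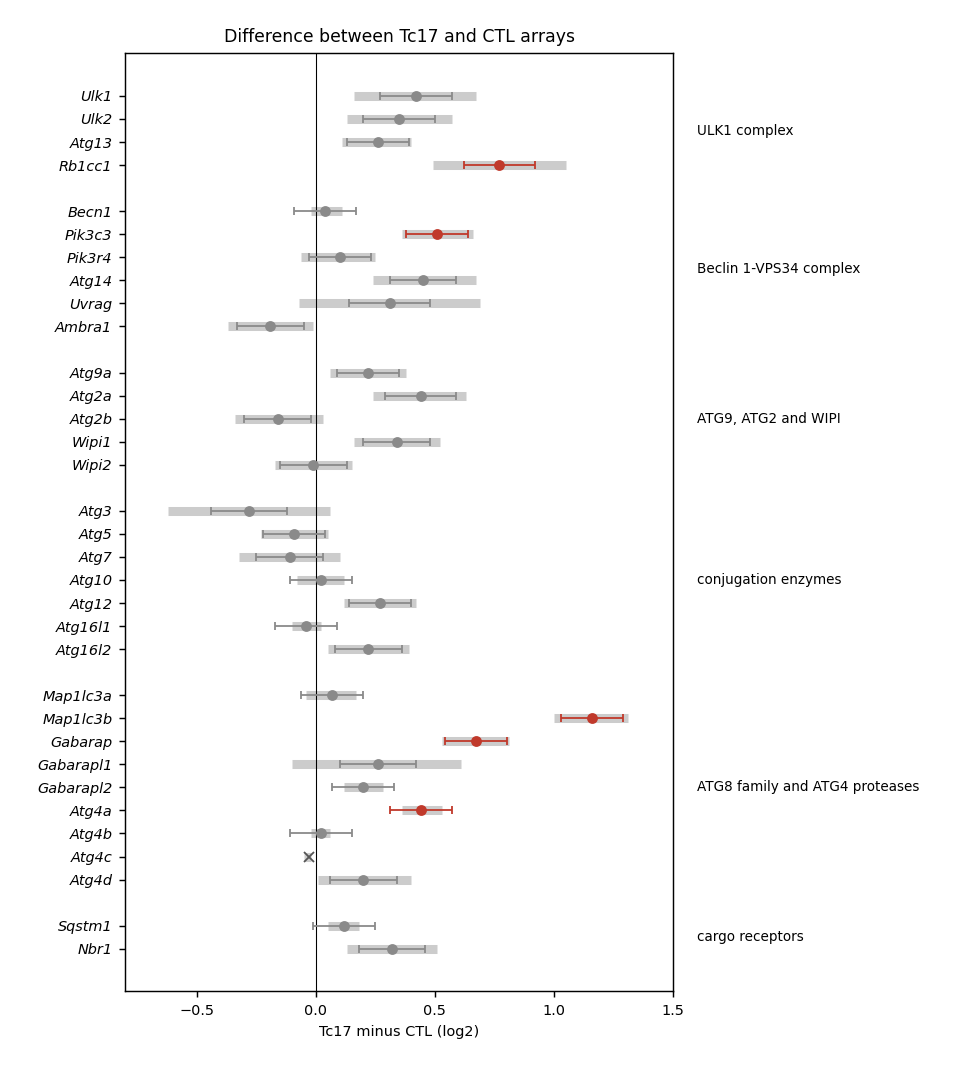
Difference Tc17 minus CTL on the log2 scale (horizontal axis) of the 33 autophagy genes. Circles with bars are the fitted difference ± SE, red where the gene rose at a limma adjusted p under 0.05 and grey where it did not pass, the cross is the gene left out as dim, and pale bands span the 4 differences between single Tc17 and CTL arrays. *Map1lc3b* stands furthest out at 1.16, and the conjugation enzymes scatter around 0.

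Since the ATG8 genes that rose most are the ones on which the account above turns, their promoters are shown, as 300 bases from 250 before to 50 after the start site (RefSeq, GRCm38.p6), each read along its own strand. Windows were given for 27 of the 33 members and for 3 of the 5 that rose, not for *Rb1cc1* and *Pik3c3*. They were searched on both strands for an E-box (CACGTG), for the core of the CLEAR element bound by TFEB, the regulator of lysosomal and autophagy genes (TCACGTGA, which contains an E-box), for a FOXO motif (GTAAACA) and for the core of the antioxidant response element bound by NRF2 (TGACNNNGC). Capitals mark the matches.
Map1lc3b, chr8:121590188-121590487, plus strand: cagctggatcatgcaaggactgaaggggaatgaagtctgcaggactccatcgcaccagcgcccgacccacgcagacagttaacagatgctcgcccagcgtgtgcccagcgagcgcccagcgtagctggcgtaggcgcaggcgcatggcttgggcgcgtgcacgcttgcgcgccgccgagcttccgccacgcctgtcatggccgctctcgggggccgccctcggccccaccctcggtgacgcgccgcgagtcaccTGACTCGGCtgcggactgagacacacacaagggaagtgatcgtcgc
Gabarap, chr11:69991120-69991419, plus strand: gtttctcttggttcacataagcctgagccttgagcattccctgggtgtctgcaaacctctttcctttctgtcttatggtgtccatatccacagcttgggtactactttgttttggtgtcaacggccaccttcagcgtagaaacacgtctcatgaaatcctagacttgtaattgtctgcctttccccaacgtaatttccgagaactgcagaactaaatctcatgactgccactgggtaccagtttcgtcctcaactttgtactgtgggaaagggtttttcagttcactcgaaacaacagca

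The *Map1lc3b* window holds 1 match, to the antioxidant response motif, and the *Gabarap* window holds none of the 4 motifs. The antioxidant response motif was present for 3 of the 27 members (*Map1lc3b*, *Atg13* and *Ulk2*) and in 12.4% of all 32851 promoter windows. The E-box was present for 4 members (*Atg3*, *Atg5*, *Atg7* and *Atg14*), none of which passed the test, and in 7.15% of all windows. The CLEAR core was present for 1 member, *Atg3*, and in 0.974% of all windows, and the FOXO motif for no member and in 3.65% of all windows. A match is a run of letters and does not show that a factor binds there.

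Other genes of the pathway were read from 6 further lists of 102 genes, of which 95 were tested. In total 24 rose (25.3%, against 8.22% of all genes tested) and 5 fell, and 15 of those that rose were in the 2 lists of the lysosome. The lists were chosen with earlier results of these data known, so their shares describe them and are not a test. In the list of lysosomal membrane and acidification genes 8 of 15 rose (53.3%) and none fell. At an unadjusted limma p under 0.05, 11 of its genes were higher and none lower, against 2130 higher of all 14953 genes tested. The count of 8 was 5 without CTL replicate 1, without CTL replicate 2 or without Tc17 replicate 2, and 2 when every row of the table was tested. *Atp6v0d1*, which encodes a proton pump subunit, rose by 1.07 ± 0.15 (limma adjusted p = 5.85e-04). *Atp6v0d2*, a gene for another form of that subunit, was at 2.39 and 2.57 in CTLs, under the filter level, and its mean in Tc17 cells was 4.22 ± 0.31 (SD, n = 2). It is counted in the 8, the 11, the 15 and the 24 above and in their shares, although it passed the filter through its Tc17 arrays. No test of it is given here for that reason, and its CTL level may be background. Of 15 lysosomal hydrolase and activator genes 7 rose (4 when every row was tested), led by *Ctsa*, which encodes cathepsin A (1.57 ± 0.13, limma adjusted p = 1.83e-05), and *Psap*, which encodes the saposin precursor (1.23 ± 0.13, limma adjusted p = 8.13e-05). *Ctsz*, which encodes cathepsin Z, fell by 0.53 ± 0.13 (limma adjusted p = 0.0203), which did not pass without CTL replicate 1 (-0.42), Tc17 replicate 1 (-0.51) or Tc17 replicate 2 (-0.54). The medians of the lists were 0.51 for the lysosomal membrane and 0.34 for the hydrolases.

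In 85 genes of these lists with a promoter window, the CLEAR core was present for 10, of which 4 rose and none fell, while 20 of the 85 rose in all. The E-box was present for 20 (5 rose, 2 fell), the antioxidant response motif for 19 (5 rose, 3 fell) and the FOXO motif for 1, which did not pass. A link between motif and difference was not tested. The 4 with the CLEAR core that rose were *Atp6v0d1*, *Ctsa*, *Ctsd* and *Mcoln1*, the last 2 named for the motif after their values were seen. *Ctsd*, which encodes cathepsin D, differed by 0.77 ± 0.13 (limma adjusted p = 0.00206) and *Mcoln1*, a lysosomal calcium channel gene, by 0.51 ± 0.13 (limma adjusted p = 0.0222). The CLEAR core of the 4 genes, in capitals within 40 bases of the window, is shown beside that of *Atg3*, the member that holds it and did not pass. Only this motif is in capitals here, and the *Ctsa* stretch also ends in an E-box, left in small letters.
Atg3, chr16:45158741-45158780, plus strand: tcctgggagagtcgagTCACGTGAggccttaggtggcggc
Ctsa, chr2:164833744-164833783, plus strand: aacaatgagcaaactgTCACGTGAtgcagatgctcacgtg
Ctsd, chr7:142387903-142387942, minus strand: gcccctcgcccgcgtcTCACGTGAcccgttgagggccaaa
Mcoln1, chr8:3500457-3500496, plus strand: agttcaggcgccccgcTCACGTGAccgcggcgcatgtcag
Atp6v0d1, chr8:105566045-105566084, minus strand: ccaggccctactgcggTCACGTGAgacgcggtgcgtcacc

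In the lists nearer to the members fewer genes passed. Of 16 further membrane and initiation genes 2 rose and 2 fell (12.5% each way, against 8.22% and 7.44% of all genes tested). Of their 16 differences 10 were above 0, and over all 14953 genes tested 8014 were. *Trp53inp1*, a p53 target whose protein binds ATG8 proteins, had the largest difference of any gene in these lists, from 6.24 and 6.57 to 8.87 and 8.82 (2.44 ± 0.14, limma adjusted p = 1.15e-06). *Wdr45*, which encodes the WIPI protein WIPI4, rose by 0.97 ± 0.13 (limma adjusted p = 4.41e-04), unlike *Wipi1* and *Wipi2*, which did not pass. The difference between these paralogs was not tested. *Bcl2l1* fell by 1.28 ± 0.15 (limma adjusted p = 2.29e-04) and *Bcl2* fell by 1.00 ± 0.13 (limma adjusted p = 4.44e-04), and their proteins are survival factors that can also hold Beclin 1. Of 14 further cargo receptors 3 rose (21.4%, against 8.22% of all genes tested) and 13 differences were above 0, with a median of 0.30. Those that rose most were *Retreg1*, a receptor for endoplasmic reticulum (1.11 ± 0.12, limma adjusted p = 1.50e-04), and *Calcoco1* (0.78 ± 0.13, limma adjusted p = 0.00176). Of 14 genes for fusion with the lysosome 2 rose (14.3%, against 8.22% of all genes tested) and 12 differences were above 0, with a median of 0.23. The 2 that rose were *Tecpr1*, which tethers autophagosomes (0.99 ± 0.19, limma adjusted p = 0.00426), and *Vps41*, a subunit of the HOPS tether (0.62 ± 0.13, limma adjusted p = 0.00663). *Tecpr1* rested on unequal Tc17 arrays, at 6.25 and 5.59, and was 0.66 without Tc17 replicate 1. Neither *Tecpr1* (adjusted p = 0.124) nor *Vps41* (adjusted p = 0.0785) passed when every row was tested.

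Of 21 genes of nutrient control 17 did not pass, 2 rose and 2 fell, and the 9.52% in each direction were near the 8.22% and 7.44% of all genes tested. The count of those that rose was 1 without CTL replicate 2, without Tc17 replicate 1 or when every row was tested. *Foxo1*, a transcription factor gene known to drive autophagy genes in several tissues, was at 6.26 and 6.16 in CTLs and at 7.63 and 7.89 in Tc17 cells (1.55 ± 0.14, limma adjusted p = 3.06e-05). *Rragd*, which encodes a GTPase that recruits mTORC1 to lysosomes, rose by 0.51 ± 0.14 (limma adjusted p = 0.0287), which did not pass without CTL replicate 2 (0.37), Tc17 replicate 1 (0.56) or Tc17 replicate 2 (0.47), or with cyclic loess (0.47, adjusted p = 0.0503). *Fnip1*, a partner of folliculin, fell by 0.90 ± 0.13 (limma adjusted p = 7.14e-04), and *Rheb*, the GTPase that activates mTORC1, fell by 0.69 ± 0.16 (limma adjusted p = 0.0130). *Rheb* did not pass when the second CTL array (-0.64) or the second Tc17 array (-0.46) was left out. *Mtor* itself (-0.04 ± 0.13) and *Tfeb* (0.08 ± 0.15) did not pass.

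**Figure D3:**
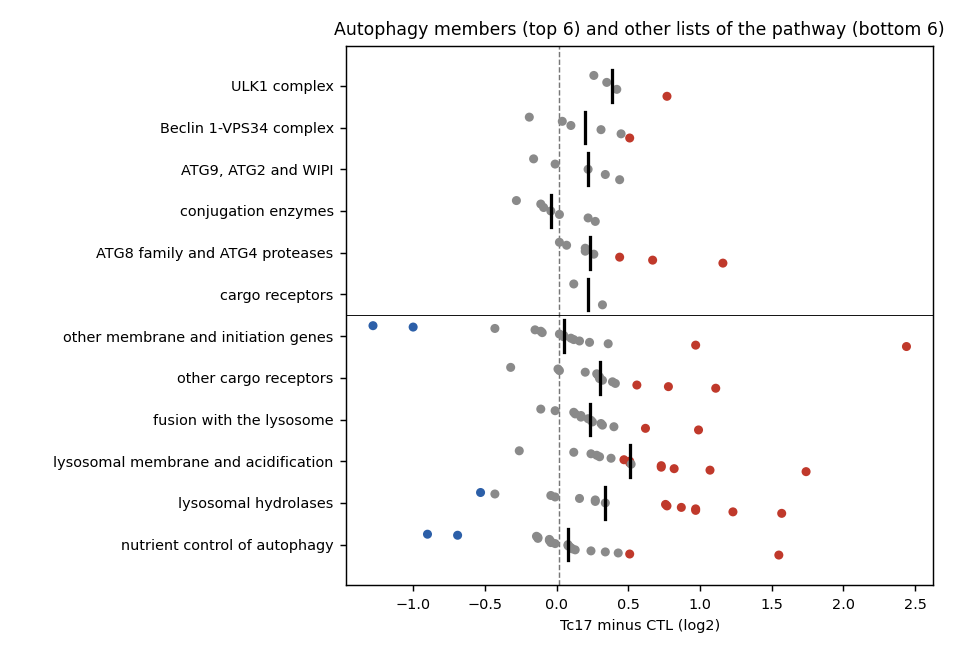
Difference Tc17 minus CTL on the log2 scale (horizontal axis) of each tested gene in the 6 groups of autophagy members and the 6 further lists. Colours give the limma call at an adjusted p of 0.05 (red for higher, blue for lower, grey for neither), black bars are medians and the dashed line is the median of 0.02 over all genes tested. The medians run from -0.04 for the conjugation enzymes to 0.51 for lysosomal membrane and acidification.

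The calls of the members rested on few arrays. When 1 array was left out, the members called changed and were not always among the 5. The differences then ran from 1.04 to 1.27 for *Map1lc3b*, from 0.60 to 0.94 for *Rb1cc1* and from 0.55 to 0.79 for *Gabarap*. For *Pik3c3* they ran from 0.40 to 0.62 and for *Atg4a* from 0.37 to 0.51. *Map1lc3b* and *Rb1cc1* passed in all 4 of these fits. When every row of the table was tested in place of the genes, *Map1lc3b* alone of the 5 passed (adjusted p = 0.0304).

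**Figure D4:**
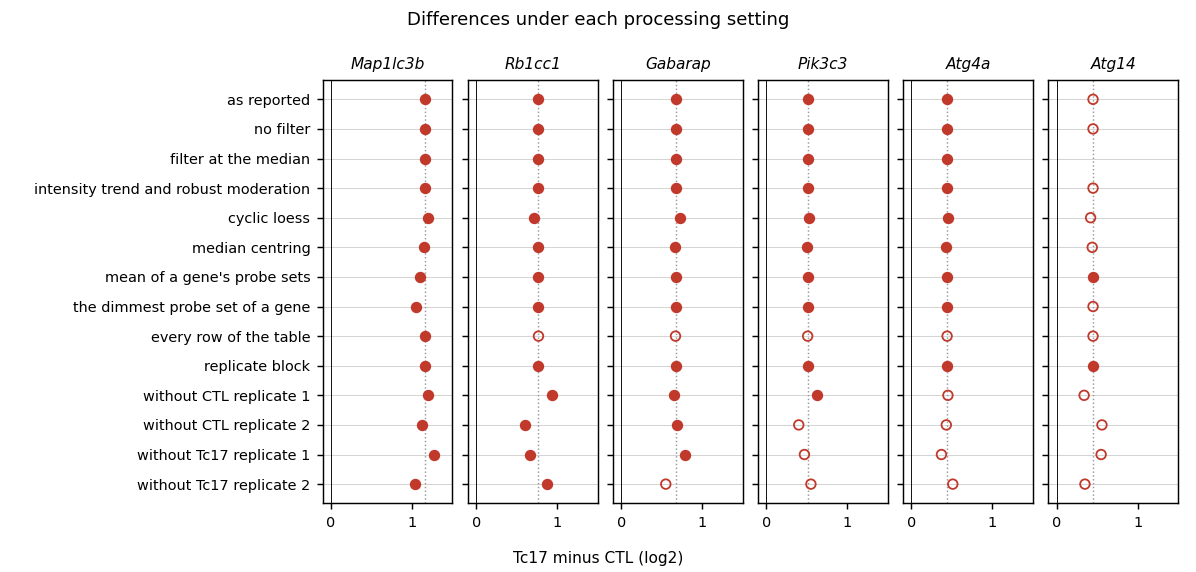
Difference Tc17 minus CTL on the log2 scale (horizontal axis) of the 5 members that rose and of *Atg14*, as reported and under each alternative setting (rows). Filled circles passed at a limma adjusted p under 0.05 and open circles did not, dotted lines are the value as reported, and *Atg14* has no value with the filter at the median. *Map1lc3b* passed in all rows, with values from 1.04 to 1.27.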

How the data were processed

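Per the labels, total RNA was amplified by cDNA synthesis in 2 cycles, labeled with biotin and hybridised to Affymetrix arrays. The authors deposited RMA values, which are background-corrected and quantile-normalised and were taken as log2 from their range of 1.18 to 13.70. No source used here gives the log base or the version of RMA. Of 35557 rows, 21789 carried 1 gene symbol. The brightest probe set stood for each of 19938 genes. The 4985 genes whose mean over the 4 arrays lay under the 25th percentile (2.59) were left out, and 14953 were tested.

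The difference between the groups was fitted with lmFit and eBayes of limma 3.58.1 under R 4.3.3, two-sided and unpaired, with Benjamini-Hochberg adjustment over all genes tested and a threshold of 0.05. The fit was tested on simulated data. Differences are Tc17 minus CTL with the SE of the fit, which eBayes moderates. It draws on the spread over all genes with 8.98 prior degrees of freedom, against 2 from the gene's own arrays. With 2 arrays per group their number limits the precision. The members and lists were chosen with earlier results of these data known. Every member is named, and from each further list the 2 genes that rose and the 2 that fell most past the threshold. *Ctsd*, *Mcoln1*, *Mtor* and *Tfeb* were named after their values were seen. Alternatives were other filters, moderation, scalings and probe set rules, every row of the table, a replicate block and each array left out. A fit without an array assumes that the lone sample varies like the other group. Promoters were read from a RefSeq table of GRCm38.p6. Python 3.11.15 drew the plots through matplotlib 3.10.9 and read tables through pandas 2.3.3.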

Additional observations from a re-analysis of the deposited data

How the results depend on the processing

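With 2 arrays per group, only the spread between these samples, in large part shared over genes by the moderation, limits each call, and dim genes have compressed differences. Of 413 values of single members under the 13 alternatives, 387 kept their direction and their side of the threshold. Of the rest, 12 lost a call, 5 gained one and 9 changed sign. The lost calls all belong to the 5 members that rose, while most of the 413 values are of members that did not pass as reported. Filters, moderation, every row and the replicate block leave the fitted difference of a member as it was, so its direction could not change there. In the test of every row of the table, which adds dim genes, rows with several symbols or none and repeated probe sets, 684 of 35557 rows passed against 2342 of 14953 genes, 1 member instead of 5 (*Map1lc3b*) and 14 instead of 29 genes of the further lists. The cause was not tested, while no filter, which adds the dim genes alone, gave 2218 genes and the same 5 members. Leaving out 1 array gave 1421 to 1924 genes, and 3 to 5 members. The further lists gave 23 to 26 genes. Without CTL replicate 1 and without Tc17 replicate 2 the count of genes was 1538 and 1421. With the replicate number as a block, 2322 genes and 6 members passed, *Atg14* being the sixth (adjusted p = 0.0425), and 29 of the further lists. The deviations of same-numbered arrays correlated at 0.020 over 14953 genes. With 2 arrays per group this cannot show whether same-numbered cultures shared a source, which is not stated. Members near 0 changed sign without passing: *Atg10* was -0.02 with cyclic loess and *Atg2b* 0.07 with its dimmest probe set, an alternative chosen after seeing the data. With 1 array left out, *Becn1* ran from -0.01 to 0.09, *Pik3r4* from -0.01 to 0.21, *Wipi2* from -0.15 to 0.12, *Atg7* from -0.24 to 0.02, *Atg10* from -0.08 to 0.12 and *Atg4b* from -0.02 to 0.06. Other scalings moved the median over all genes tested from 0.020 to 0.011 and 0.012.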
